A study of Mus musculus with 6 samples.

Results

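Bile acid and organic anion transporters of the liver were followed through 10 genes, chosen by symbol while earlier results of these data were known. They were the uptake carriers *Slc10a1*, *Slco1a1*, *Slco1a4*, *Slco1b2* and *Slco2b1*, the canalicular exporters *Abcb11*, *Abcb4* and *Abcc2*, and the basolateral exporters *Abcc3* and *Abcc4*. Each of the 10 symbols was found once among the 24421 genes of the deposited table. The table comes from RNA-seq of hepatic mRNA from 3 wild-type (WT) and 3 heterozygous (Pai-1+/-) mice, all labelled as of the C57BL/6 strain (C57BL/6J in the methods of the study), as 21 weeks old and fed ad lib on standard chow. The heterozygous animals came from crosses of Pai-1-/- with WT mice, so the disrupted copy was not limited to a tissue. The study calls the controls littermates, but how WT littermates arose from that cross is not described. The labels call the WT mice male and give no sex for the Pai-1+/- mice, which the methods of the study describe as male too.

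The values used here are pooled over both genotypes. The count columns of the deposited data carry animal numbers that match no sample label, so no library could be given to a genotype, and the differences between Pai-1+/- and WT livers were not analysed here. The measure is the authors' mean normalized count, which is the mean over all libraries of the read count of a gene divided by the size factor of the library. It carries no SD, SE or number of reads per library, and since columns that match no sample label were not used, the spread between mice is not given here. Whether neighbouring levels differ beyond that spread was not tested. Since longer transcripts yield more reads, the transporters and the genes of their pathway were compared with each other after the mean was divided by the length of the longest annotated transcript in kilobases (mean normalized count per kilobase), and undivided means are named as such or given as normalized counts.

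Hepatocytes take bile acids and other organic anions from sinusoidal blood across the basolateral membrane and secrete them across the canalicular membrane into bile. Bile acids return from the intestine in portal blood, so the uptake carriers handle the recycled pool, while ATP-driven pumps of the canalicular membrane drive bile flow. A further set of pumps in the basolateral membrane sends conjugates and bile acids back to blood. In bulk tissue a lower number of cells of a type and less RNA per cell cannot be told apart.

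The labelled tissue was checked against marker genes. All 6 hepatocyte markers were abundant, with means from 14011 normalized counts for *Asgr1* to 2155546 for *Alb*, the gene of serum albumin. The 6 markers of cholangiocytes, the cells lining bile ducts, lay between 25.8 and 268 normalized counts, those of Kupffer cells between 173 and 2374.0, those of endothelial cells between 205 and 1273, and those of stellate cells between 135 and 4159.5. Of 4 neutrophil markers in the table, the highest, *S100a9*, had 71.5 normalized counts. Among 5 red cell markers the 4 globin genes are listed at 0 and *Alas2* had 2136 normalized counts. Why the globin genes stand at 0 was not tested, and their 0 was not taken as absence of red cells. All 4 kidney markers were at or below 0.322. The genotypes were not checked, since the pooled means cover both.

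The transporters were among the abundant mRNAs of these livers, with *Abcc4* as the exception. All 10 exceeded a mean of 10 normalized counts, as did 12971 genes of the table, of which 12499 had an annotated length. Per kilobase, 8 of the 10 lay in the top 10% of those 12499 genes, whose median was 129 and whose 90th percentile was 1209 mean normalized counts per kilobase, and *Slco1a4* lay just under that limit. With coding length in place of transcript length, 4 of the 10 lay in the top 10% of those genes that have a coding sequence. The median of the 10 members was 1783 mean normalized counts per kilobase. From *Slc10a1* to *Abcc4* the levels spanned a ratio of 567, or 174 before division by length. Together the 10 genes took 0.448% of all mean normalized counts.

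**Figure D1:**
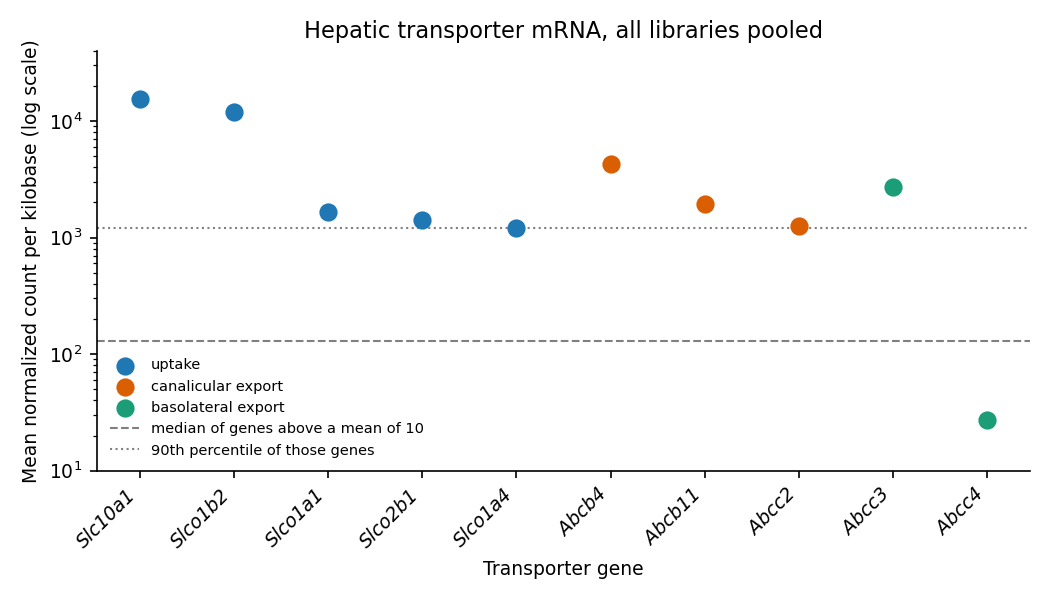
Mean normalized count per kilobase (log scale) of each transporter, with points coloured by role; each point is 1 mean over all libraries without an error, the dashed line is the median (129) and the dotted line the 90th percentile (1209) of genes above a mean of 10. *Slc10a1* and *Slco1b2* stand above the rest, and *Abcc4* is the one point under the dashed line.

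*Slc10a1*, the sodium taurocholate cotransporting polypeptide and the main carrier of conjugated bile acids into hepatocytes, had the highest level per kilobase. Its mean was 27119 normalized counts, or 15505 per kilobase, at percentile 99.1 of the genes above the minimum mean. *Slco1b2*, an organic anion transporting polypeptide of the basolateral hepatocyte membrane that carries bilirubin, unconjugated bile acids and many drugs, followed with 39489 normalized counts, or 11941 per kilobase (percentile 98.8). The ratio of *Slc10a1* to *Slco1b2* was 1.30 per kilobase. Before division by length it was 0.687, so which of these carriers ranked first depended on the length of the transcripts, 1749 bases for *Slc10a1* and 3307 for *Slco1b2*.

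The other uptake carriers were expressed at a lower and narrow range of levels. *Slco1a1*, which transports steroid conjugates and bile acids and is known to be more abundant in male than in female mouse liver, had 6407 normalized counts, or 1641 per kilobase. *Slco2b1*, a carrier of sulfated steroids, had 6210.0 normalized counts, or 1417 per kilobase. *Slco1a4*, a broad carrier of organic anions, cardiac glycosides and bile acids, was the lowest with 4590.3 normalized counts, or 1200.7 per kilobase. *Slco1b2* exceeded *Slco1a1* 7.28-fold per kilobase and *Slco1a1* exceeded *Slco1a4* 1.37-fold. Of the summed uptake level per kilobase, *Slc10a1* accounted for 48.9% and *Slco1b2* for 37.7%.

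Among the canalicular exporters, *Abcb4* had the highest level per kilobase of the longest transcript, but not per kilobase of all exons. *Abcb4* encodes the floppase that moves phosphatidylcholine into bile, where the lipid shields the bile duct from bile acids. Its mean was 17327 normalized counts, or 4248 per kilobase (percentile 96.8). *Abcb11*, the bile salt export pump, had 9672 normalized counts, or 1925 per kilobase (percentile 93.2). *Abcc2*, the pump for bilirubin glucuronides and glutathione conjugates, had 10114 normalized counts, or 1260.0 per kilobase (percentile 90.4). *Abcb4* thus exceeded *Abcb11* 2.21-fold per kilobase of the longest transcript, whereas with the length of all exons of the gene the ratio was 0.983 and the order turned. The ratio of *Abcb11* to *Abcc2* was 1.53 per kilobase and 0.956 before division by length, since the longest *Abcc2* transcript has 8027 bases and that of *Abcb11* has 5025.

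The basolateral exporters stood far apart. *Abcc3*, which returns glucuronide conjugates and bile acids to blood, had 13568 normalized counts, or 2711 per kilobase (percentile 95.1), above *Abcb11* and *Abcc2*. *Abcc4*, which exports bile acids together with glutathione as well as cyclic nucleotides, had 156 normalized counts, or 27.3 per kilobase (percentile 22.5). *Abcc3* was 99.2-fold more abundant per kilobase than *Abcc4*. *Abcc4* was the one transporter of the 10 under the median of the genes compared.

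When the roles were contrasted, the summed level of the 5 uptake carriers was 31706 mean normalized counts per kilobase, that of the 3 canalicular exporters was 7433 and that of the 2 basolateral exporters was 2738. Uptake made up 75.7% of the total, canalicular export 17.7% and basolateral export 6.54%. The uptake sum exceeded the canalicular sum 4.27-fold and the basolateral sum 11.6-fold. Before division by length these ratios were 2.26 and 6.11, and with coding length 5.73 and 17.4. The order of the medians differed, since the median canalicular exporter (1925 per kilobase) was above the median uptake carrier (1641 per kilobase). With coding length the order of these medians reversed, at 2439 for canalicular exporters and 3183 for uptake carriers. The canalicular median was again the higher with all exons of the gene, at 1847 against 1214. It was also higher without division by length, at 10114 against 6407 normalized counts. The uptake sum rested on *Slc10a1* and *Slco1b2*. Messenger RNA levels are no measure of transport rate or of protein in the membrane.

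Genes of the same pathway were compared through a list of 29 other transporters, membrane partners and regulators, of which 24 exceeded a mean of 10 normalized counts. Among 10 other uptake genes the median was 35.4 mean normalized counts per kilobase and 6 exceeded the minimum mean. *Slc22a18*, which the list groups under uptake, was the highest of them with 1858 per kilobase, and what it carries was not examined. *Slco2a1*, the prostaglandin transporter, had 333 per kilobase, the organic anion transporter *Slc22a7* had 260.0, *Slc10a5* had 116 and *Slco3a1* had 25.4. *Slc10a2*, the sodium-dependent bile acid transporter of the ileum and of cholangiocytes, had 45.5 per kilobase, where *Slc10a1* of the same family had 15505. The 4 other uptake genes, *Slco4a1*, *Slco1c1*, *Slco1a6* and *Slco1a5*, had means of 9.72, 1.33, 0.481 and 0.354 normalized counts.

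Among 10 other exporters the median was 32.6 mean normalized counts per kilobase. *Abcg5* and *Abcg8*, which together form the canalicular sterol exporter, had 1626 and 986 per kilobase. *Abcc6* had 913 and *Abcg2*, a canalicular pump for sulfate conjugates and drugs, had 629.9 per kilobase, both below each of the 3 canalicular exporters described above. *Abcb1a*, *Abcb1b*, *Abcc1* and *Abcc5* ranged from 8.66 to 37.2 per kilobase. The subunits of the basolateral organic solute transporter were low, *Slc51b* at 28.0 per kilobase and *Slc51a* with a mean of 1.63 normalized counts. *Abcc4* was thus at a level per kilobase near that of *Slc51b*, another basolateral exporter gene. Before division by length they differed, with 156 normalized counts for *Abcc4* and 19.9 for *Slc51b*.

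The 7 regulators followed, which are known to act on these transporters, were all above the minimum mean. *Hnf4a*, the hepatocyte nuclear factor, had 5587 mean normalized counts per kilobase and *Rxra*, the partner of many nuclear receptors, had 3357. *Nr1h4*, the bile acid receptor, had 2799.9 per kilobase, and *Nr0b2*, the corepressor it induces, had 985. *Nr1i3* and *Nr1i2*, receptors for xenobiotics that induce organic anion transporters and export pumps, had 2246 and 1085. *Nfe2l2*, the factor of the antioxidant response, had 841. *Atp8b1*, a phospholipid flippase of the canalicular membrane, had 136 and *Pdzk1*, a scaffold that anchors membrane transporters, had 697.

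**Figure D2:**
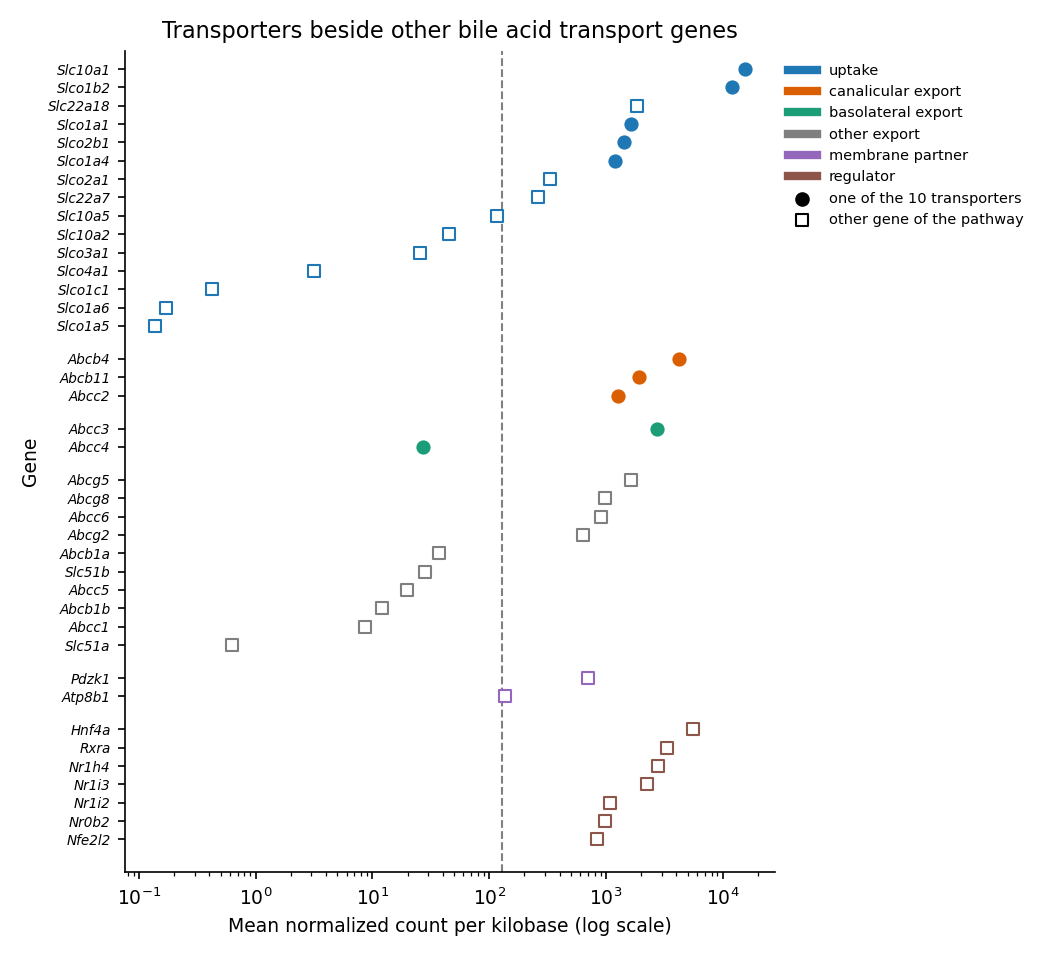
Mean normalized count per kilobase (log scale) of the 10 transporters (filled circles) and 29 other genes of the pathway (open squares), grouped by role; each point is 1 mean over all libraries without an error and the dashed line is the median of genes above a mean of 10 (129). The 3 canalicular exporters lie between 1260.0 and 4248, whereas uptake genes extend from 0.137 for *Slco1a5* to 15505 for *Slc10a1*.

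The genes of the uptake carriers *Slco1b2*, *Slco1a4* and *Slco1a1* lie in 1 cluster on chromosome 6 (GRCm38, the assembly named mm10). *Slco1b2* occupies chr6:141629518-141686646 on the plus strand, *Slco1a4* chr6:141805440-141856199 and *Slco1a1* chr6:141907282-141946962, both on the minus strand. *Slco1c1* lies on one side of them and *Slco1a6* and *Slco1a5* on the other, and genes of the interval without an Slco symbol were not followed. Levels per kilobase changed sharply along the cluster, from 0.420 for *Slco1c1*, a carrier of thyroid hormone known from the brain, to 11941 for *Slco1b2*, 1200.7 for *Slco1a4*, 1641 for *Slco1a1*, and down to 0.171 for *Slco1a6* and 0.137 for *Slco1a5*. A similar step was seen on chromosome 5, where *Abcb4* (chr5:8893717-8959231, plus strand) had 4248 per kilobase while the neighbouring multidrug pump genes *Abcb1b* and *Abcb1a* had 12.0 and 37.2. *Abcb4* begins 27.4 kb after the end of *Abcb1b*.

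**Figure D3:**
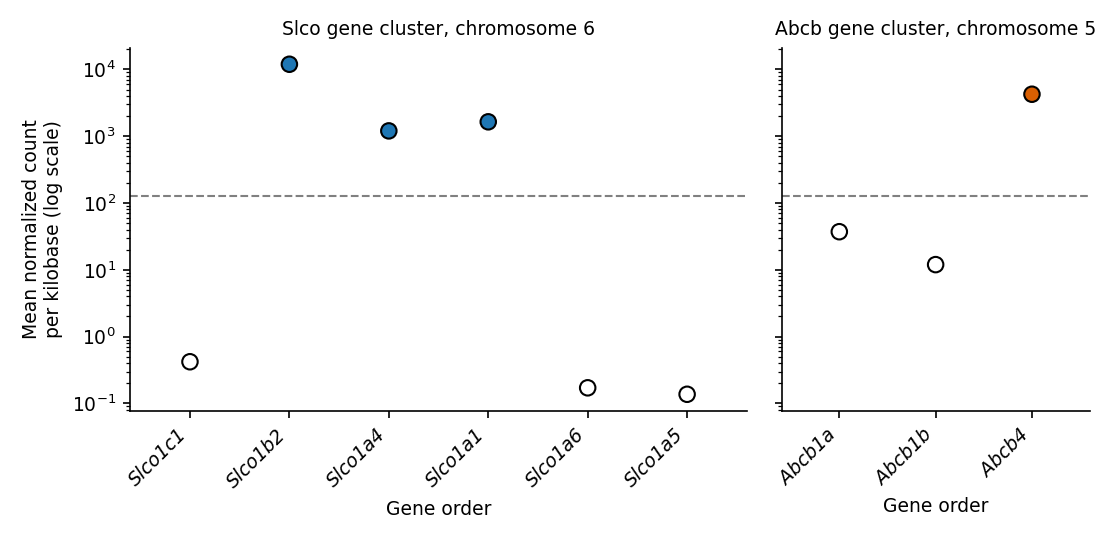
Mean normalized count per kilobase (log scale) of the *Slco* genes in order along chromosome 6 and the *Abcb* genes along chromosome 5; filled points are transporters of the set, open points their neighbours, and the dashed line is the median of genes above a mean of 10 (129). The filled points lie between 1200.7 and 11941 on chromosome 6, whereas the 3 open neighbours there are under 1.

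The other transporters are dispersed. *Slc10a1* lies at chr12:80953183-80968705 (minus strand, 6 exons in the transcript with the longest coding sequence), *Slco2b1* at chr7:99657804-99711340 (minus strand, 14 exons) and *Abcb11* at chr2:69238282-69342616 (minus strand, 29 exons). *Abcc2* lies at chr19:43782192-43840740 (plus strand, 32 exons) and *Abcc3* at chr11:94343295-94392997 (minus strand, 31 exons). *Abcc4*, with the lowest level, has the largest span, 224 kb at chr14:118482692-118706219 (minus strand, 31 exons), and *Slc10a1*, with the highest, has the smallest, 15.5 kb.

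Paralogs can share reads, so it was examined how far single-end reads of 75 bases could be told apart. Each stretch of 75 bases in the transcript with the longest coding sequence was searched, on both strands, in the transcripts of all other genes of the annotation. For *Slc10a1*, *Slco1b2*, *Abcc2*, *Abcc3* and *Abcc4*, 0 stretches were shared with another gene. For *Slco1a1*, 1.75% of the stretches were shared, for *Slco1a4* 1.76%, for *Abcb4* 1.50% and for *Abcb11* 1.29%. *Slco1a1* and *Slco1a4* shared 58 stretches with each other, and 57 and 65 with *Slco1a5*. Each also shared 22 with *Slco1a6*, 22 with *Gm6614* and 14 with *Gm5724*. *Abcb4* shared 49 with *Abcb1a* and 24 with *Abcb1b*. The largest share, 6.66% in *Slco2b1*, matched the antisense gene *Gm15635* on the opposite strand, and that of *Abcb11* matched the antisense gene *Gm13613*. Neither antisense gene is listed in the authors' table. Exact copies only were counted, and reads that differ from a paralog by a few bases were not examined.

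The sequences most alike among the 10 genes were the coding sequences of *Slco1a1* and *Slco1a4*, which were identical at 86.6% of 2013 aligned positions. All other pairs within the Slco, Abcb and Abcc families were identical at 46.8% to 58.1% of their aligned positions. The longest stretch shared without a difference had 132 bases, at coding positions 672 to 803 of both genes, and is shown because a read from inside it cannot be given to one of the genes. It spans exons 6 and 7 of *Slco1a1* (chr6:141925636-141932442, minus strand, intron included) and exons 9 and 10 of *Slco1a4* (chr6:141825086-141826258, minus strand, intron included). Below, capitals mark the shared bases, and 30 bases on each side are in lower case, 5′ to 3′, from the GENCODE M21 transcripts.
Slco1a1: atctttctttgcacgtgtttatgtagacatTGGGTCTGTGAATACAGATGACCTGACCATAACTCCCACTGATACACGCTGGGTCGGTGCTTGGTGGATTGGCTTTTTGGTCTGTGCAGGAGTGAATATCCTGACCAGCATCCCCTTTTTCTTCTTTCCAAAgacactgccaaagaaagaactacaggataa
Slco1a4: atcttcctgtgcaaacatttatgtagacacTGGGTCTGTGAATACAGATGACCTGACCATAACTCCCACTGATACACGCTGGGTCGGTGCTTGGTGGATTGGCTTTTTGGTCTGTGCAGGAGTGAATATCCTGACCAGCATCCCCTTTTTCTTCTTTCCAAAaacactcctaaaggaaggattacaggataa
In each of the other pairs of the 10 genes within these families the longest exact stretch of coding sequence had at most 20 bases, the length reached in *Abcb11* with *Abcb4* and in *Abcc2* with *Abcc4*.

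The DNA before the transcription starts was compared with the levels as a description only. RefSeq promoter sequences were found for 9 of the 10 genes, with 13 start sites in all, and *Abcc3* was the gene without one. The 250 bases before each start were searched. The RefSeq start of *Abcc2* lies 116 bases inside the gene as annotated for the lengths, so the bases nearest to it belong to the annotated gene. The highest and the lowest gene per kilobase are shown first, each by its upstream start, with every CpG dinucleotide in capitals, 5′ to 3′ on the strand of the gene. The *Slc10a1* sequence (GRCm38.p6, chr12:80968706-80968955, minus strand) holds 1 CpG, and 7.86% of all 32841 promoters in the table hold fewer.
Slc10a1: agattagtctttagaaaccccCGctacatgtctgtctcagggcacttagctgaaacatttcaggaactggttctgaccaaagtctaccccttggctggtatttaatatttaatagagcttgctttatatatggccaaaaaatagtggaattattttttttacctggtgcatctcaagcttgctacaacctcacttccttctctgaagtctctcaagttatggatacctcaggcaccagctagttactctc
The *Abcc4* sequence (GRCm38.p6, chr14:118706220-118706469, minus strand) holds 35 CpG, and 97.0% of all promoters hold fewer. The downstream starts of these genes run the other way, with 6 CpG for *Slc10a1* and 4 for *Abcc4*.
Abcc4: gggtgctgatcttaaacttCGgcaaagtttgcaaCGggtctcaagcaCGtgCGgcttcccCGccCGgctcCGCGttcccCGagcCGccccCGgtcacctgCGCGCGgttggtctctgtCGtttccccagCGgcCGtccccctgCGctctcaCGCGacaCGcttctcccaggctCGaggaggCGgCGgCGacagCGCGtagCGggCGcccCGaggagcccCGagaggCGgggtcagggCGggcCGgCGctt
The promoters of *Slco1a1*, *Slco1a4* and *Slco1b2* hold 0 CpG, that of *Abcc2* holds 1, the *Abcb11* promoter and the first *Slco2b1* promoter hold 4 each, and that of *Abcb4* holds 18, while the median over all promoters is 6. CpG content did not order the genes by level, since *Abcb4* with 18 held rank 3 per kilobase and *Slco1a4* with 0 held rank 9.

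The bile acid receptor binds as a pair with *Rxra* to an inverted repeat, here AGGTCANTGACCT, which reads the same on both strands. With 1 mismatch allowed, this repeat was found in 2 of the 13 promoters, those of *Abcb11* and *Slco1b2*, and in 0.0792% of all promoters. The *Abcb11* gene is a textbook target of the receptor. Both promoters are shown with the match in capitals. In *Abcb11* (GRCm38.p6, chr2:69342617-69342866, minus strand) the match lies 63 to 51 bases before the start.
Abcb11: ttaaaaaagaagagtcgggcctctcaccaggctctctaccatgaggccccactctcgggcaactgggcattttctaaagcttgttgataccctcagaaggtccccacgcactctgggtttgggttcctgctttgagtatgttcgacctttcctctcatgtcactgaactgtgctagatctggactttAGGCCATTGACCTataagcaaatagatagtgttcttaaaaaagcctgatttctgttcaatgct
In *Slco1b2* (GRCm38.p6, chr6:141629268-141629517, plus strand) it lies 88 to 76 bases before the start.
Slco1b2: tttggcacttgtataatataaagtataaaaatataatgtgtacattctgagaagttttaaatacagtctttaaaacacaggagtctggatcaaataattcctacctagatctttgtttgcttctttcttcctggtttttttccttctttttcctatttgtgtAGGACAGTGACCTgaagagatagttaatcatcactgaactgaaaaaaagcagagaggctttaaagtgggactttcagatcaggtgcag
A match is a description of letters and not a binding site.

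Further motifs were searched on both strands of the same windows. The hexamer AGGTCA, which is contained in the repeats of these receptors and overlaps both matches above, was found in 5 of the 13 promoters (14.0% of all promoters), those of *Abcb11*, *Abcc2*, *Slco1a1*, *Slco1b2* and the downstream *Slc10a1* start. The direct repeat AGGTCANAGGTCA with 1 mismatch was found once, in *Slco1a1* (0.484% of all promoters), and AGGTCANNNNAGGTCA with 1 mismatch in 0 (0.241%). TGACNNNGC, the core of the antioxidant response element, was found in *Abcc2* and at both *Abcc4* starts (10.2%), and CACGTG, the E-box, at the upstream *Abcc4* start (6.02%). In *Abcc2* this element (98 to 90 bases before the start) and the hexamer (49 to 44) lay inside the annotated gene. TATAAA was found in 3 promoters (12.4%), the upstream one of *Slc10a1* and those of *Slco1a1* and *Slco1b2*. Its matches lay within 234 to 94 bases before the start. CCAAT was found in 4 (33.9%), those of *Abcb4*, *Abcc2*, *Slco1a4* and a downstream start of *Slco2b1*. The nearer CCAAT match of *Abcc2*, 28 to 24 bases before the start, also lay inside the annotated gene.

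The order of the 10 genes was followed under other length measures. *Slc10a1* and *Slco1b2* took the first and second place, in either order, and *Abcc4* the last under all 4 measures. Of the 45 pairs of genes, 40 kept their order when coding length replaced transcript length, 42 when all exons of the gene were counted and 41 without division by length. The pairs that turned under coding length set *Slco1a1* and *Slco2b1* against *Abcb11* and *Abcc3*, and *Slco1a4* against *Abcc2*. With all exons, *Abcb4* fell behind *Abcb11* and *Abcc3*, and *Slco2b1* behind *Abcc2*. The order among the middle 7 genes thus depended on the length measure.

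**Figure D4:**
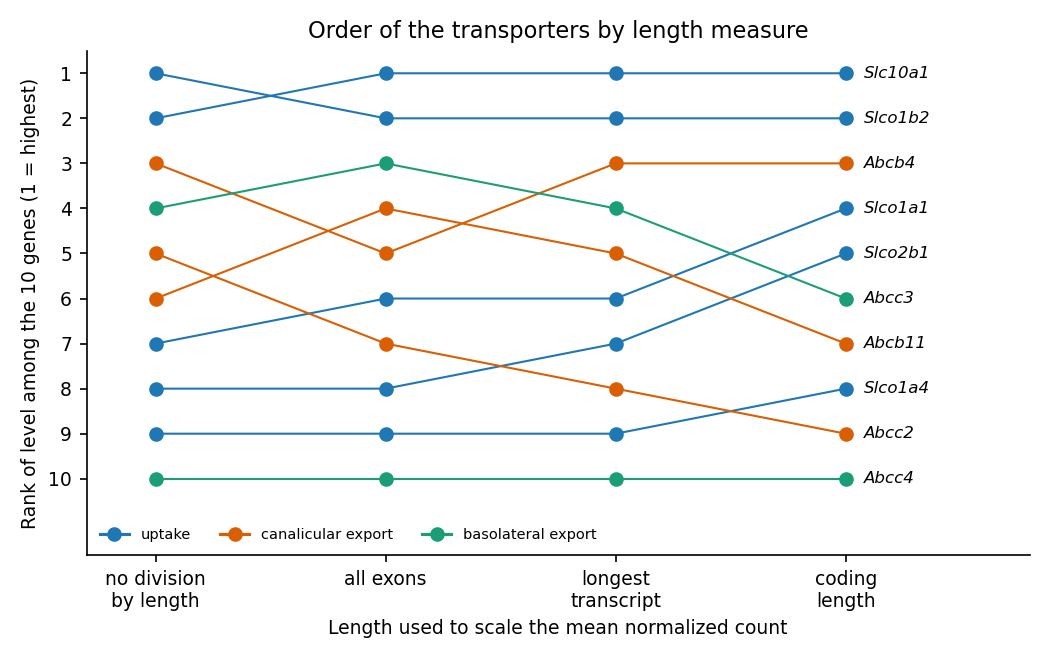
Rank of each transporter among the 10 (1 is the highest level) when the mean normalized count was left undivided or divided by the length of all exons, of the longest transcript or of the coding sequence; lines join the ranks of a gene and colours give the role. *Slc10a1* and *Slco1b2* hold ranks 1 and 2 and *Abcc4* holds rank 10 in every column, while lines between them cross.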

How the data were processed

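Total RNA was extracted from the livers of 3 WT and 3 Pai-1+/- mice and libraries were made with an mRNA kit. The authors aligned single-end reads of 75 bases with STAR on mm10 and used DESeq2, both within the RNA Express application of BaseSpace. Versions, gene annotation and strand setting are not given in the sources used here, and the processing notes also name HOMER. The signal used here was computed and deposited by the authors: each gene's count was divided by the size factor of its library and averaged over the libraries of both genotypes. It sums to 30045982. A further 5 columns of the deposited table hold the authors' comparison (log2 fold change, its standard error, a test statistic, a p-value and an adjusted p-value) and were not used. The authors also deposited whole-number counts in 6 columns headed by animal numbers. No sample label holds these numbers, so the columns were left out of every step, and neither the depth of each library nor intervals based on it are given. For the same reason the planned tests between genotypes could not be run.

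Lengths, exons and coordinates were read from GENCODE M21, whose assembly GRCm38 is that of mm10, and matched by symbol for 96.4% of the 12971 genes with a mean above 10. Which annotation the authors counted on is unknown, so lengths may differ from theirs. Percentiles give the share of the 12499 genes with a length that lie below a gene. Promoters came from RefSeq (GRCm38.p6). Python 3.11.15, NumPy 2.4.6, pandas 2.3.3, Biopython 1.88 (global alignment of coding sequences) and Matplotlib 3.10.9 were used, and the calculations were tested on simulated data. All 10 transporters are named, as are all genes of the pathway list except some that are not reported here and were left out of its counts. The genes and lists were chosen with earlier results of these data known. The motifs were chosen after the levels had been seen.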

Additional observations from a re-analysis of the deposited data

How the results depend on the processing

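The share of the summed level carried by each role moved with the length used. Uptake carriers took 81.2% with coding length, 62.2% with no division by length, 76.1% with all exons of the gene, a setting chosen after seeing the data, and 83.5% without the highest gene of each role. Canalicular exporters took 14.2%, 27.6%, 16.0% and 16.4% in the same order, and basolateral exporters 4.66%, 10.2%, 7.85% and 0.141%, the last because *Abcc4* alone remained. Under each of these settings uptake had the largest share and basolateral export the smallest. However, no setting left out both *Slc10a1* and *Slco1b2*. The uptake carriers besides them had 1641, 1417 and 1200.7 per kilobase, against a canalicular sum of 7433. With coding length, 4 of the 10 transporters lay in the top 10% in place of 8, and only genes with a coding sequence were ranked there. The count was 9 when ranked among all genes or with no division by length and 8 with all exons. Single genes kept their rank in 4 of 10 cases with coding length, 5 with all exons and 4 with no division by length. The means are the same throughout, so these shifts come from the length used, the genes ranked or the genes left out.

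No paired analysis was possible because the count columns carry animal numbers that match no sample label. For the same reason the edgeR and DESeq2 tests between genotypes, the other normalization, the filter on low counts and the fits that leave out a replicate were not run. The pooled means carry no measure of precision.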
